A study of Homo sapiens with 4 samples.

Results

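The mitochondrial ribosomal protein genes described here were all genes whose symbol consists of MRPL or MRPS, a number and at most 1 further letter. The symbol alone chose them, and 78 of the 20003 genes measured fit it, 49 named MRPL and 29 named MRPS. Their expression was measured by RNA sequencing of total RNA in HCT116, an epithelial tumour cell line from a human colon carcinoma. There were 2 libraries of cells with a short hairpin RNA knockdown of NUDT21, shNUDT21 1 and shNUDT21 5, and 2 control libraries, shPLKO 1 and shPLKO 2, whose genotype is given as wild type and whose hairpin the series description calls shScramble. No library carried a further treatment, and all cells grew in DMEM with serum. The NUDT21 protein belongs to cleavage factor Im, a complex that helps to choose where an mRNA is cut and polyadenylated. What the numbers 1 and 5 stand for is not stated, and neither is it stated that the libraries of a group are separate cultures, so the spread behind each p-value is that of these libraries and may be technical.

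Mitochondria have their own ribosome, which translates the few membrane proteins encoded by mitochondrial DNA, all of them parts of the respiratory chain and of ATP synthase. Its RNA comes from the mitochondrial genome, whereas its proteins are encoded in the nucleus, made in the cytosol and imported. Compared with its bacterial relative the mammalian mitoribosome holds less RNA and more protein, so its subunits fall into homologs of bacterial ribosomal proteins and proteins particular to mitochondria. The MRPL and MRPS symbols follow the large and the small subunit with exceptions: structures of the mammalian mitoribosome place MRPS30 and MRPS18A in the large subunit, and MRPS36 belongs to the α-ketoglutarate dehydrogenase complex.

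The depth was between 29963980 and 30459886 reads per library, recovered from the deposited values, with 16143 to 16336 genes detected. NUDT21 itself, the targeted gene, was at 3.96 and 2.999 RPKM in shNUDT21 1 and 5, against 24.3 and 26.9 RPKM in shPLKO 1 and 2. RPKM counts reads per kilobase of a gene and relative to the depth of its library, so levels of genes and libraries can be roughly set side by side. The length used for a gene is the same in every library, and whether transcripts differed in length between the groups was not tested. Nor does RPKM correct for the composition of a library. Summed over all genes it was 428868 and 399469 in shNUDT21 1 and 5, against 435251 and 423930 in shPLKO 1 and 2. The log2 fold change of NUDT21 was -2.58 (SE 0.16, limma adjusted p 0.0406). It was -2.65 without shPLKO 1 and -2.51 without shPLKO 2, where the adjusted p was 0.116 and 0.111, and with no filter on low values the adjusted p was 0.0653. The label of an epithelial line was checked with 6 markers, among which EPCAM, an epithelial adhesion protein, was at 162 and 179.9 RPKM in shNUDT21 1 and 5 and at 129.8 and 132 RPKM in shPLKO 1 and 2. The 6 markers summed to 3700 and 4520 RPKM in shNUDT21 1 and 5, against 10100 and 9420 RPKM in shPLKO 1 and 2, a difference carried by the keratins KRT8, KRT18 and KRT19. Of markers of other cell types, 4 of 5 for fibroblasts, 5 of 5 for leukocytes and 4 of 4 for endothelium were under 1 RPKM in every library.

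The RPKM of mitoribosomal protein genes was on the whole somewhat lower in shNUDT21 libraries, and among them only MRPS28 passed the test. Of the 78 genes, 77 had a mean of at least 1 RPKM over the 4 libraries and were tested, and the exception was MRPS24. Fold changes are shNUDT21 over shPLKO on the log2(RPKM + 1) scale, which understates changes of low genes, and a gene passed at a limma adjusted p under 0.05. The median log2 fold change of the 77 genes was -0.22, with quartiles of -0.46 and -0.06, beside a median of -0.003 over all 11124 genes tested. It was below 0 for 61 and above 0 for 16 of them, that is below 0 for 79.2%, beside 50.2% of all genes tested. In bulk RNA of this kind, fewer cells of a type and less RNA per cell cannot be told apart.

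Read against the background, the number of single genes that passed was small. Of the 77 genes 1 fell and 0 rose, where 3.21% of all genes tested fell and 2.61% rose, 5.82% in all. The count of 0 that rose was 0 at an unadjusted p under 0.05 too, and 0 with voom, limma's method for counts, on recovered reads. At an unadjusted limma p under 0.05, 21 of the 77 were lower and 0 higher, beside 17.3% of all genes lower and 16.6% higher, 33.9% in all. Both shNUDT21 values lay below both shPLKO values for 40 of the 77 genes, or 51.9%, where 33.4% of all genes tested did so. Both lay above for 9, or 11.7%, where 32.8% of all genes did so.

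The size of the differences was modest. The ratio of mean RPKM, shNUDT21 over shPLKO, ran from 0.459 to 1.485 over the tested genes and was at most 0.75 for 23 of them. Summed over the 78 genes, the level was 3258 and 2645 RPKM in shNUDT21 1 and 5, against 3719 and 3574 RPKM in shPLKO 1 and 2. That was 0.76% and 0.662% of the summed RPKM of all genes in shNUDT21 1 and 5, against 0.855% and 0.843% in shPLKO 1 and 2. Each tested gene held between 378 and 4898 reads in each library, so counting error was small beside the larger differences, though not beside the smallest.

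**Figure D1:**
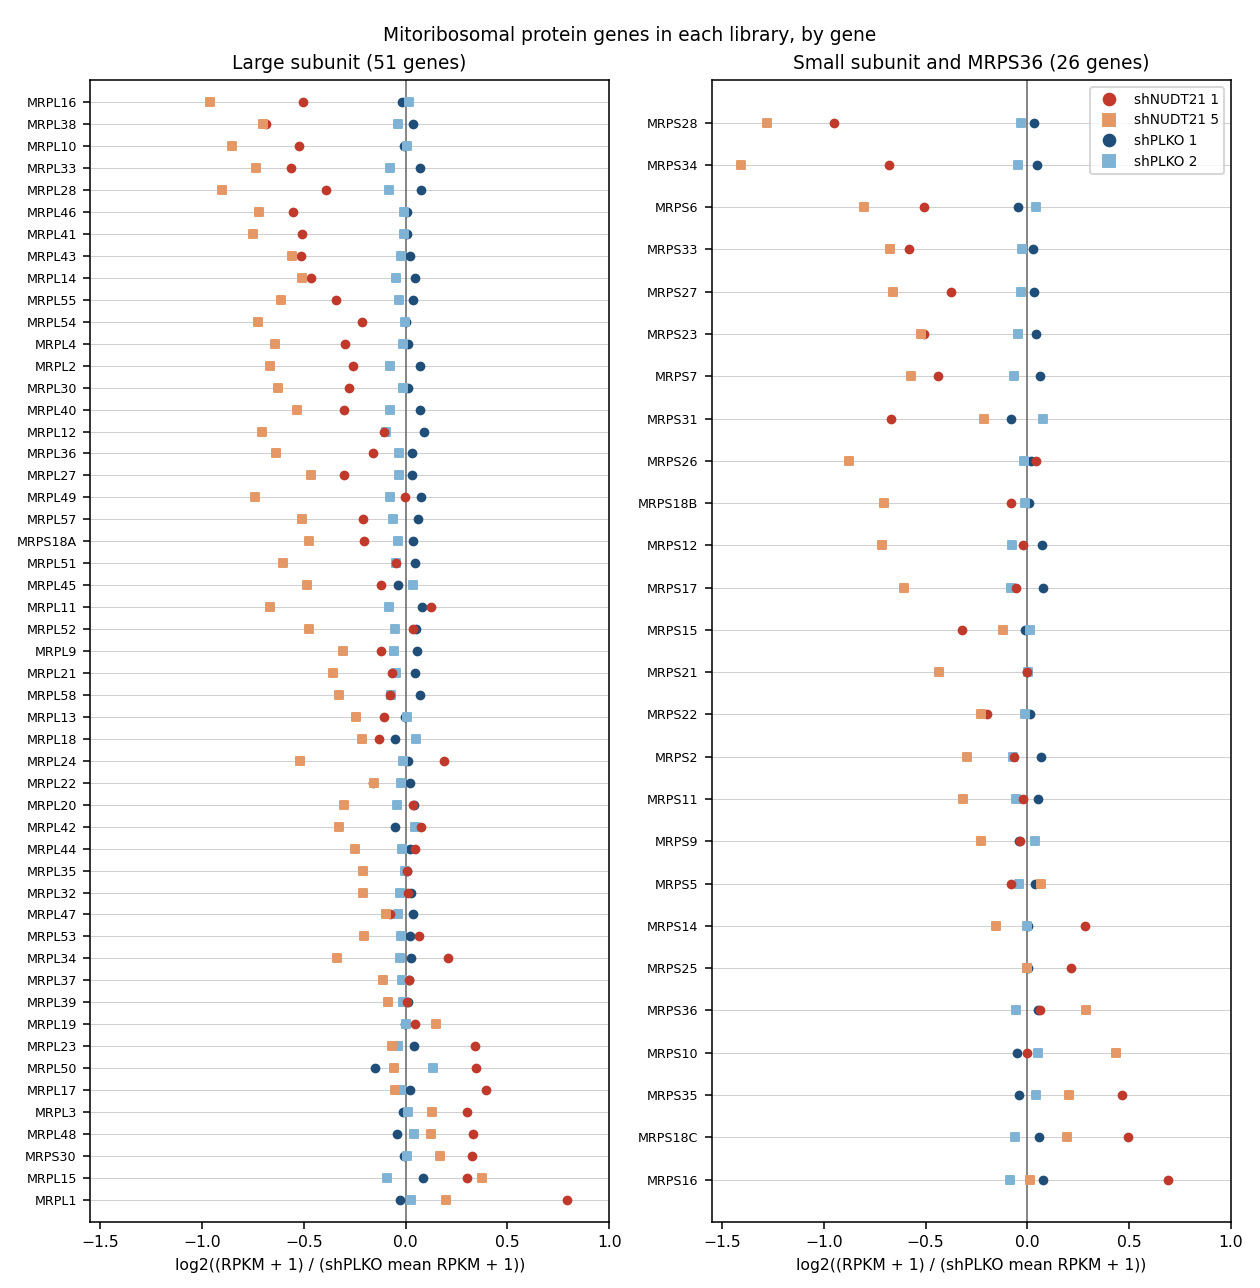
Log2 ratio of RPKM + 1 in each library to that of the shPLKO mean (x axis) for the 77 tested genes (y axis), with the large subunit on the left and the small subunit with MRPS36 on the right, sorted by log2 fold change. Circles and squares are single libraries, and most shNUDT21 5 squares lie left of 0, with MRPS28 and MRPS34 farthest to the left in the right panel and MRPL1 farthest to the right in the left panel.

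MRPS28, a small-subunit protein named as the counterpart of bacterial S1, was the only gene of the 77 tested MRPL and MRPS genes that passed, and it fell. Its level was 50.6 and 40.1 RPKM in shNUDT21 1 and 5, from 1083 and 850 reads, against 101 and 96.6 RPKM in shPLKO 1 and 2, with 2175 and 2070 reads behind them. The groups were well apart, and the 95% counting intervals, which cover counting error only, reached at most 53.8 RPKM in shNUDT21 libraries and came down to at least 92.5 RPKM in shPLKO libraries. The shNUDT21 mean was 0.459 of the shPLKO mean, a log2 fold change of -1.11 (SE 0.16, limma adjusted p 0.0427). The annotation places 650 bases of its exons under another protein-coding gene on the same strand, AC036214.3, so reads could have been assigned to either. Without shPLKO 1 or without shPLKO 2 the adjusted p was 0.471 or 0.403, and it was 0.066 when genes of any level were tested, so the call did not hold there.

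MRPS34, a small-subunit protein particular to mitochondria, had the next lowest ratio, 0.497. It was at 70.7 and 42.3 RPKM in shNUDT21 1 and 5, against 117 and 110.1 RPKM in shPLKO 1 and 2. Both shNUDT21 values were below both shPLKO values but differed widely from each other, and the log2 fold change of -1.04 (SE 0.27) had a limma adjusted p of 0.0775.

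Among the 12 genes with the lowest p, the other small-subunit genes were MRPS33, MRPS6 and MRPS23. MRPS33, particular to mitochondria, was at 33.3 and 31.2 RPKM in shNUDT21 1 and 5, against 51.4 and 49.5 RPKM in shPLKO 1 and 2 (log2 fold change -0.63, SE 0.12, limma adjusted p 0.0549). MRPS6, homolog of bacterial S6, was at 21.7 and 17.5 RPKM in shNUDT21 1 and 5, against 30.2 and 32.3 RPKM in shPLKO 1 and 2 (-0.65, SE 0.16, adjusted p 0.0686). MRPS23, particular to mitochondria, was at 61.2 and 60.5 RPKM in shNUDT21 1 and 5, against 90.2 and 84.7 RPKM in shPLKO 1 and 2 (-0.51, SE 0.13, adjusted p 0.0709). In all 3 genes the groups did not overlap, with shNUDT21 lower, and none passed the threshold. Reads of these 3 genes may be shared with annotated pseudogenes, and MRPS6 also shares exon bases with SLC5A3 on the same strand.

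Large-subunit genes held 7 of these 12 places. MRPL38 and MRPL46 encode proteins of the central protuberance, the part of the large subunit that faces the head of the small one. MRPL38 was at 50.7 and 50.05 RPKM in shNUDT21 1 and 5, against 84.2 and 80.0 RPKM in shPLKO 1 and 2, a log2 fold change of -0.69 (SE 0.12, limma adjusted p 0.0505). MRPL46 was at 20.6 and 18.2 RPKM in shNUDT21 1 and 5, against 30.9 and 30.5 RPKM in shPLKO 1 and 2, a log2 fold change of -0.64 (SE 0.13, adjusted p 0.0573). Both genes were lower in both shNUDT21 libraries and missed the threshold, MRPL38 narrowly, and MRPL38 passed with voom (adjusted p 0.0483), with median ratio scaling (0.0494) and without the intensity trend (0.0499). With the GC and length trend removed the log2 fold change of MRPL38, whose transcript has 64.6% GC, was -0.46 (adjusted p 0.0872), and without shPLKO 1 or shPLKO 2 its adjusted p was 0.605 or 0.493. MRPL38 shares 1373 exon bases with AC087289.3 and MRPL46 shares 724 with AC013489.1, each on the same strand.

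MRPL10, MRPL11 and MRPL12 are homologs of the bacterial proteins at the stalk of the large subunit, which binds the translation factors. MRPL10, homolog of the stalk base protein, was at 52.7 and 41.8 RPKM in shNUDT21 1 and 5, against 75.9 and 76.6 RPKM in shPLKO 1 and 2 (log2 fold change -0.69, SE 0.16, limma adjusted p 0.0672). MRPL12, the stalk protein proper, was at 138 and 90.8 RPKM in shNUDT21 1 and 5, against 158 and 139 RPKM in shPLKO 1 and 2 (-0.41, SE 0.24, adjusted p 0.295). MRPL11 was at 28.2 and 15.9 RPKM in shNUDT21 1 and 5, against 27.35 and 24.3 RPKM in shPLKO 1 and 2. Only in MRPL10 were the groups well apart: in MRPL12 shNUDT21 1 was just below both controls, and in MRPL11 shNUDT21 1 was above both and shNUDT21 5 below both.

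The other large-subunit genes among the 12 were MRPL33, MRPL43, MRPL41 and MRPL14. MRPL33, homolog of bacterial L33, was at 88.3 and 78.2 RPKM in shNUDT21 1 and 5, against 138 and 124 RPKM in shPLKO 1 and 2 (ratio 0.636, limma adjusted p 0.0628). MRPL41, particular to mitochondria, was at 94.9 and 80.0 RPKM in shNUDT21 1 and 5, against 136 and 135 RPKM in shPLKO 1 and 2 (ratio 0.646, adjusted p 0.0672). In both genes each shNUDT21 library was far below each shPLKO library. MRPL43, particular to mitochondria, was at 24.9 and 24.1 RPKM in shNUDT21 1 and 5, against 36.5 and 35.5 RPKM in shPLKO 1 and 2 (ratio 0.681, adjusted p 0.0629). MRPL14, homolog of bacterial L14 at the interface of the subunits, was at 51.7 and 50.05 RPKM in shNUDT21 1 and 5, against 74.0 and 69.3 RPKM in shPLKO 1 and 2 (ratio 0.71, adjusted p 0.0777). The pairs were again apart, and within each group the libraries lay close together. With the GC and length trend removed the log2 fold change of MRPL41, whose transcript has 71.9% GC, went from -0.63 to -0.375. It went from -0.535 to -0.372 for MRPL43, from -0.486 to -0.321 for MRPL14 and from -0.647 to -0.664 for MRPL33. MRPL43 shares 1170 exon bases with SEMA4G on the opposite strand and MRPL33 shares 324 with BABAM2 on the same strand, and whether counting used the strand is not given in the sources used here.

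**Figure D2:**
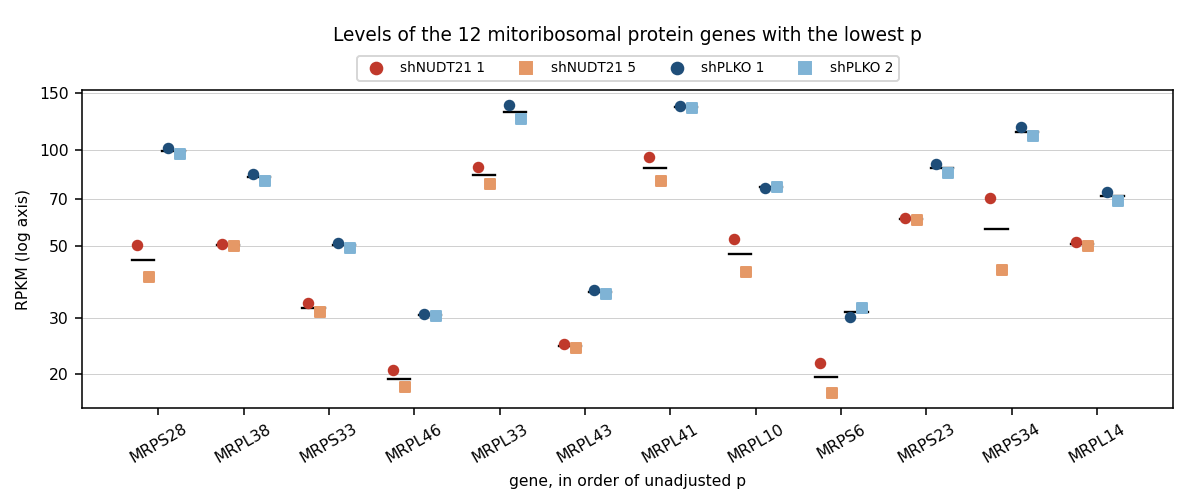
RPKM on a log axis (y axis) of the 12 genes with the lowest unadjusted p (x axis) in each library, with shNUDT21 left of shPLKO for each gene. Bars are the means of the 2 libraries of a group, and in all 12 genes both shNUDT21 points lie below both shPLKO points, widest apart for MRPS28.

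Promoter sequences are shown for MRPL38, MRPS33 and MRPL46, which had the lowest unadjusted limma p of the tested mitoribosomal protein genes after MRPS28. Sequences are also shown for MRPL1 and MRPS16, which had the highest ratios, so that the starts can be read beside the values. Each runs from 250 bases before to 50 bases after the annotated start, 5′ to 3′ on the gene's strand, from RefSeq on GRCh38.p14. Capitals mark matches, on either strand, to CCGGAAG, the core that ETS family factors such as GABPA bind, and to AAGATGGC, a core bound by YY1. Their places are chr17:75904835-75905134 on the minus strand for MRPL38, chr7:141014903-141015202 on the minus strand for MRPS33, chr15:88467339-88467638 on the minus strand for MRPL46, chr4:77862580-77862879 on the plus strand for MRPL1 and chr10:73252595-73252894 on the minus strand for MRPS16.
MRPL38: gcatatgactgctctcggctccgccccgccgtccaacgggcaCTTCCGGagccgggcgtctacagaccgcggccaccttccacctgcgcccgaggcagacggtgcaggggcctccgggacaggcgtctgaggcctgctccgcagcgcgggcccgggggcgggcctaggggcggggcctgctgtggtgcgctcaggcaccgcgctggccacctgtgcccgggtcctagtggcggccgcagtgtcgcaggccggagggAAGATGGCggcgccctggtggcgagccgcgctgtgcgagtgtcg
MRPS33: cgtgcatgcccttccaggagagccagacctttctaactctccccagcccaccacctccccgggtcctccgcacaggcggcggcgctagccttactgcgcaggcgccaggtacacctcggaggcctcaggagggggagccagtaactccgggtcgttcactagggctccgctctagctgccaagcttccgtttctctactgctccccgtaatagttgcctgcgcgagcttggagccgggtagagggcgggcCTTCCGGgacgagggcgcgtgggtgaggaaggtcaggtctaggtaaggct
MRPL46: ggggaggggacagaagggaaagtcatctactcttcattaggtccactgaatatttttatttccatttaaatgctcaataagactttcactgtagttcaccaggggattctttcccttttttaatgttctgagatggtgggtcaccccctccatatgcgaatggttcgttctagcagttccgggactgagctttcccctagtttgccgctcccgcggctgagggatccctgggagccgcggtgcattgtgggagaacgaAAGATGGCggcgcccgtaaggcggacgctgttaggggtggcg
MRPL1: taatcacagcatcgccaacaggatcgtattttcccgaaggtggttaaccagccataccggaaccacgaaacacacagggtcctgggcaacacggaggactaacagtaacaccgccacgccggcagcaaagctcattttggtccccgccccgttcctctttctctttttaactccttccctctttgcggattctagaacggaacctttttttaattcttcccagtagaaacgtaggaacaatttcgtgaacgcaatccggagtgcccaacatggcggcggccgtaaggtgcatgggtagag
MRPS16: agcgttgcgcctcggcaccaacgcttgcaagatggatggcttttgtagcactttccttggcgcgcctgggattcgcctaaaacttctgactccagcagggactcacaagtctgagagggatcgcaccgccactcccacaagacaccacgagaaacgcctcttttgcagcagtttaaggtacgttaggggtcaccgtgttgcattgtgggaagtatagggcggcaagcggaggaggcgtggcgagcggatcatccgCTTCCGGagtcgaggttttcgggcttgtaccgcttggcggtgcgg
The MRPL38 window holds 1 match of each kind, the MRPS33 window 1 ETS match and the MRPL46 window 1 YY1 match. Of the genes with the highest ratios, MRPS16 has 1 ETS match and MRPL1 has 0 of either. MRPS28, MRPS34 and MRPL16 had ratios of 0.459, 0.497 and 0.6, below the 0.614 of MRPL38, and their windows are not shown. So few windows, picked by the values of their genes, cannot show whether matches go with lower levels.

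The table of promoters held 69 of the 78 genes and 27305 promoters in all. Those 27305 were not limited to the 11124 genes tested here, and no share over the tested genes was taken. Whether the letters are particular to mitoribosomal protein genes among expressed genes was therefore not tested. The ETS letters were in 29 of the 69 promoters, or 42%, beside 10.7% of all promoters. The YY1 letters were in 20, or 29%, beside 3.03% of all, and either of the pair was in 41, or 59.4%, beside 13.1%. TATAAA, the TATA box, was in 2, or 2.9%, beside 12% of all. CCAAT was in 20, or 29%, beside 35.7%, and GCGCATGC, the core bound by NRF1, in 6, or 8.7%, beside 3.27%. Every motif was searched on both strands, and matches to different motifs may overlap.

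Log2 fold changes of genes with and without these letters were set side by side. Among tested genes, the 29 with the ETS letters had a median log2 fold change of -0.37, with 24 below 0, and the 39 without had a median of -0.17, with 31 below 0. The 19 with the YY1 letters had a median of -0.30 and the 49 without one of -0.22. These are descriptions of windows of fixed length, and the differences were not tested. MRPL46 and MRPS11 are neighbours on chromosome 15 on opposite strands, and their windows share 181 bases. MRPL46 is the gene with both shNUDT21 libraries well below the controls, whereas MRPS11 was at 6.02 and 4.73 RPKM in shNUDT21 1 and 5, against 6.40 and 5.87 RPKM in shPLKO 1 and 2, and its groups overlapped.

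The large and the small subunit had nearly the same median. Of 51 tested large-subunit genes, 42 had a log2 fold change below 0, with a median of -0.21. Both shNUDT21 libraries were below both controls for 29 of them and above for 6, or 56.9% and 11.8%, beside 33.4% and 32.8% of all genes. None passed the limma test, 14 were lower and 0 higher at an unadjusted p under 0.05, beside 17.3% and 16.6% of all genes, and voom called 1, MRPL38. Of 25 tested small-subunit genes, 19 were below 0, with a median of -0.22, and 11 lay entirely below and 2 entirely above the controls. MRPS28 alone passed.

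Genes for proteins particular to mitochondria and homologs of bacterial proteins were also set side by side, and their difference was not tested. Of 31 tested genes particular to mitochondria, 26 were below 0, with a median log2 fold change of -0.34. Of 45 tested homologs of bacterial proteins, 35 were below 0, with a median of -0.18. Within the large subunit the medians were -0.30 over 21 genes particular to mitochondria and -0.19 over 30 homologs. The order in the large subunit rested on shNUDT21 5: the median log2 ratio to the shPLKO mean was -0.47 for genes particular to mitochondria and -0.35 for homologs there, whereas in shNUDT21 1 it was -0.05 and -0.11. Within the small subunit the median log2 fold changes were -0.43 over 10 genes particular to mitochondria and -0.18 over 15 homologs. Of the 3 relatives of bacterial S18, MRPS18A and MRPS18B were counted as particular to mitochondria, since they do not hold the place of S18 in the structure. The spread within each class was wide, and the lowest gene of all, MRPS28, was counted as a homolog.

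A minority of genes ran the other way. MRPL1, homolog of the protein that forms the L1 stalk where spent tRNA leaves the bacterial ribosome, was at 18.2 and 11.7 RPKM in shNUDT21 1 and 5, against 9.88 and 10.3 RPKM in shPLKO 1 and 2. Its ratio of 1.485 was the highest of the tested genes, and most of it came from shNUDT21 1 (log2 fold change 0.50, SE 0.23, limma adjusted p 0.199). MRPS18C, a homolog of bacterial S18, was at 30.6 and 24.6 RPKM in shNUDT21 1 and 5, against 22.3 and 20.5 RPKM in shPLKO 1 and 2 (ratio 1.289, adjusted p 0.199). MRPL15, homolog of bacterial L15, was at 30.9 and 32.6 RPKM in shNUDT21 1 and 5, against 26.4 and 23.3 RPKM in shPLKO 1 and 2 (ratio 1.277, adjusted p 0.152). These 3 genes had both shNUDT21 libraries above both controls, and none passed the test. MRPS16, homolog of bacterial S16, was at 54.4 and 33.5 RPKM in shNUDT21 1 and 5, against 35.2 and 31.3 RPKM in shPLKO 1 and 2, so its groups overlapped (ratio 1.322, adjusted p 0.38). The other 6 genes that lay entirely above the controls had ratios from 1.081 for MRPL19 to 1.279 for MRPS35, and the others were MRPL3, MRPL48, MRPS30 and MRPS36. These 6 genes are named after their values were seen.

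The 3 MRPS18 paralogs, all related to bacterial S18, did not move together. MRPS18C was above the controls in both shNUDT21 libraries. MRPS18A, placed in the large subunit, was at 35.6 and 29.4 RPKM in shNUDT21 1 and 5, against 42.2 and 40.1 RPKM in shPLKO 1 and 2, a ratio of 0.789. MRPS18B, of the small subunit, was at 50.2 and 32.2 RPKM in shNUDT21 1 and 5, against 53.5 and 52.7 RPKM in shPLKO 1 and 2, a ratio of 0.776. Both were below the controls in both shNUDT21 libraries, and none of the 3 passed the test. MRPS18C shares 1956 exon bases with ABRAXAS1 on the opposite strand and has 6 annotated pseudogenes.

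The levels of the subunit genes differed far more from one another than between the groups. Mean levels in shPLKO ran from 5.81 to 175.6 RPKM with a median of 40.8 RPKM, and 68 of the 77 genes lay between 10 and 100 RPKM. The mean over the 4 libraries was highest for MRPL51, a large-subunit protein particular to mitochondria, at 170 and 115 RPKM in shNUDT21 1 and 5, against 181 and 170.0 RPKM in shPLKO 1 and 2. It was followed by MRPL12 and MRPL41, whose values are given above. The lowest levels were those of MRPL39, MRPS11 and MRPS25. MRPL39 was at 5.84 and 5.42 RPKM in shNUDT21 1 and 5, against 5.86 and 5.76 RPKM in shPLKO 1 and 2. MRPS25 was at 7.97 and 6.71 RPKM in shNUDT21 1 and 5, against 6.73 and 6.71 RPKM in shPLKO 1 and 2. The highest and the lowest mean level were 27.8-fold apart. RPKM divides by the gene model length, which was 677, 1015 and 604 bases for MRPL51, MRPL12 and MRPL41. It was 3264, 5144 and 4594 bases for MRPL39, MRPS11 and MRPS25. How much of the range comes from these lengths was not tested. The ranges of MRPL39 and MRPS11 overlapped, and every MRPS25 value lay above theirs.

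MRPS24, homolog of bacterial S3, stood apart from all others. It was listed at 0.142 and 0.048 RPKM in shNUDT21 1 and 5, from 3 and 1 reads, and at 0 in shPLKO 1 and 2, where a count of 0 allows up to 3 reads, or 0.142 RPKM. No library held more than 3 reads, so no fold change is given. URGCP-MRPS24, a readthrough gene that covers 606 of its exon bases on the same strand, was listed at 0 in all 4 libraries. Not given in the sources used here is how the authors assigned reads that fit both genes.

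The libraries of the knockdown differed from each other. The median log2 ratio to the shPLKO mean was -0.08 in shNUDT21 1 and -0.36 in shNUDT21 5, beside 0.017 and -0.023 over all genes tested. Of the 77 genes, 41 were below both shPLKO values in shNUDT21 1 and 63 in shNUDT21 5, where 44.7% and 48.6% of all genes were. The level was lower in shNUDT21 5 than in shNUDT21 1 for 69 of them, or 89.6%, beside 55.3% of all genes tested. The median absolute log2 difference was 0.294 between the shNUDT21 libraries and 0.073 between the shPLKO libraries. The shift of the whole group thus rested mainly on shNUDT21 5, and with that library left out the median log2 fold change was -0.08.

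The spread between the knockdown libraries was widest for MRPS26, MRPL11 and MRPL49. MRPS26, particular to the mitochondrial small subunit, was at 57.9 and 30.1 RPKM in shNUDT21 1 and 5, against 56.8 and 55.4 RPKM in shPLKO 1 and 2. MRPL49, of the large subunit, was at 45.1 and 26.6 RPKM in shNUDT21 1 and 5, against 47.6 and 42.8 RPKM in shPLKO 1 and 2. In MRPS26 shNUDT21 1 lay above both controls, in MRPL49 between them, and in both shNUDT21 5 lay far below. Over the 77 genes the ratios in the shNUDT21 libraries were related, with Pearson's r of 0.722 and Spearman's rho of 0.699, beside an r of 0.626 over all genes. Both ratios share the shPLKO mean, and genes are not independent replicates.

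**Figure D3:**
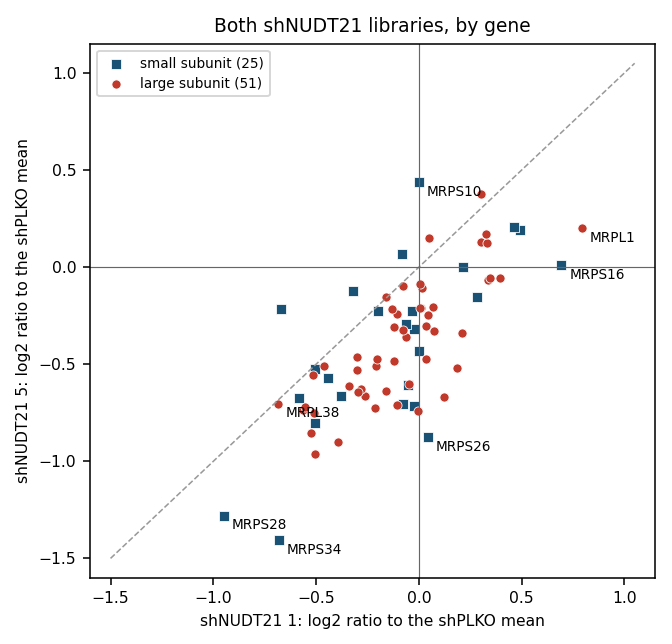
Log2 ratio to the shPLKO mean, on RPKM + 1, in shNUDT21 1 (x axis) and in shNUDT21 5 (y axis) for 76 tested subunit genes, with squares for the small and circles for the large subunit. Most points lie below the dashed line of equal ratios, as 69 of 77 tested genes were lower in shNUDT21 5, and MRPS28, MRPS34 and MRPL38 are low in both libraries.

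The fold changes moved with the base composition of the transcripts. Over the 77 genes Pearson's r between log2 fold change and GC content was -0.431 and Spearman's rho was -0.462, beside -0.36 and -0.396 over the 11087 tested genes with a known GC content. These are descriptions across genes of the same 4 libraries. Of the 39 genes with at least 49.7% GC, 38 had a log2 fold change below 0, with a median of -0.38, and of the 38 genes with less GC, 23 did, with a median of -0.10. Over all genes split at the same GC content the medians were -0.18 and 0.18, with 66.9% and 33.0% below 0. On both sides the mitoribosomal protein genes thus had lower medians than all genes. With the trends of GC and length removed the medians were -0.20 and -0.14, and that of all 77 genes was -0.17, while over all genes 126 rose and 100 fell, where 290 rose and 357 fell as deposited. MRPS28 itself had 35.0% GC and passed with the trend removed (log2 fold change -1.21, adjusted p 0.0479), whereas MRPL38 and MRPS34 had 64.6% and 64.5%.

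**Figure D4:**
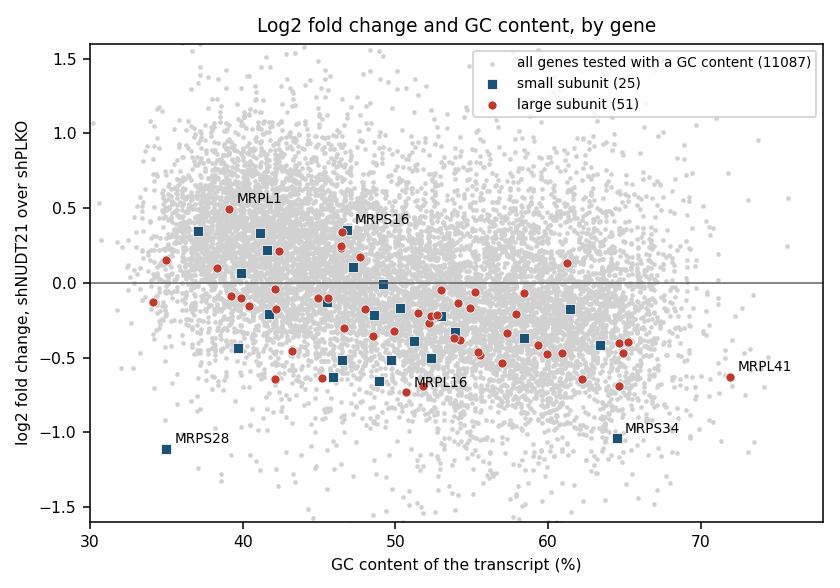
GC content of the transcript in percent (x axis) against log2 fold change, shNUDT21 over shPLKO (y axis), for 76 tested subunit genes and, in grey, the 11087 tested genes with a known GC content. Genes outside the axis limits are not drawn, most subunit genes on the right side lie below 0, and MRPS28 lies at the lower left, at 35.0% GC.

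Length and level were related to the fold change too. Pearson's r was 0.28 with the log2 gene model length and -0.387 with the log2 mean level over the 77 genes, beside 0.179 and -0.109 over all genes. The 77 genes had shorter models and higher levels than all genes tested. Their medians were 1415 bases and 36.8 RPKM, beside 3817 bases and 9.2 RPKM. No set of genes matched for length and level was compared, so the shares over all genes come from unlike genes. Shared reads could also bear on the values, since 39 of the 78 genes have exon bases in common with another gene on either strand and 42 have annotated pseudogenes. The 39 tested genes with no such overlap had a median log2 fold change of -0.22 with 29 below 0, and the 38 with overlap one of -0.24 with 32 below 0. The 36 tested genes with no annotated pseudogene had a median of -0.29 with 30 below 0, and the 41 with one had a median of -0.21 with 31 below 0. The median was below 0 in each of these subsets.

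Other parts of the mitoribosome and its assembly were read from lists of their genes. Of 5 subunits with other symbols, 3 had a log2 fold change below 0 and 2 above, beside 50.2% of all genes tested below 0. Of the 5, 1 fell and 0 rose, where 3.21% of all genes fell and 2.61% rose. The gene that fell was AURKAIP1, a small-subunit protein also known for binding Aurora A kinase. It was at 46.4 and 41.2 RPKM in shNUDT21 1 and 5, against 84.8 and 77.4 RPKM in shPLKO 1 and 2, a log2 fold change of -0.87 (SE 0.14, limma adjusted p 0.0454). Its transcript has 67.9% GC, and the call was lost with the GC and length trend removed, at -0.63 (adjusted p 0.0661).

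Of 26 genes for ribosome assembly and rRNA modification, 3 fell and 0 rose, 22 had a log2 fold change below 0, and the median was -0.26, where 3.21% of all genes fell and 50.2% were below 0. At an unadjusted limma p under 0.05, 8 of the 26 were lower and 0 higher, beside 17.3% and 16.6% of all genes, and voom called 3 lower and 0 higher. RPUSD4, a pseudouridine synthase that acts on the large-subunit rRNA, was at 9.06 and 8.29 RPKM in shNUDT21 1 and 5, against 17.8 and 16.9 RPKM in shPLKO 1 and 2 (log2 fold change -0.93, SE 0.13, adjusted p 0.0416). NOA1, a GTPase needed for the small subunit, was at 24.5 and 23.2 RPKM in shNUDT21 1 and 5, against 45.12 and 45.15 RPKM in shPLKO 1 and 2 (-0.89, SE 0.12, adjusted p 0.0416). RPUSD3, a relative of RPUSD4, was at 19.8 and 22.3 RPKM in shNUDT21 1 and 5, against 38.6 and 36.1 RPKM in shPLKO 1 and 2 (-0.80, SE 0.13, adjusted p 0.0464). All 3 had shNUDT21 libraries close to each other and far below the controls. With the GC and length trend removed RPUSD4 kept its call (log2 fold change -0.85, adjusted p 0.0488). NOA1 (-0.75, adjusted p 0.0529) and RPUSD3 (-0.59, adjusted p 0.0819) did not pass there, with fold changes in the same direction. None of these 3, nor AURKAIP1, passed with no filter on low values or with either shPLKO library left out.

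For the translation factors that work with the mitoribosome the median was near 0. Of 15 tested, 9 had a log2 fold change below 0, the median was -0.04, and 0 passed the limma test. At an unadjusted limma p under 0.05, 4 were lower and 1 higher, beside 17.3% and 16.6% of all genes, and voom called 0. MTFMT, which formylates the initiator tRNA, was at 10.1 and 9.03 RPKM in shNUDT21 1 and 5, against 15.8 and 15.2 RPKM in shPLKO 1 and 2 (ratio 0.617, adjusted p 0.0555). GUF1, homolog of the bacterial elongation factor LepA, was at 9.004 and 7.72 RPKM in shNUDT21 1 and 5, against 4.96 and 5.66 RPKM in shPLKO 1 and 2 (ratio 1.575, adjusted p 0.0762). The pair differed in opposite directions, and neither passed.

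Genes for mitochondrial DNA upkeep, mitochondrial transcription and its nuclear regulators had a median log2 fold change of 0.05, with 8 of 17 below 0 and 0 past the limma test. At an unadjusted limma p under 0.05, 1 was lower and 2 were higher, beside 17.3% and 16.6% of all genes, and voom called 1 lower. POLRMT, the mitochondrial RNA polymerase, was at 35.2 and 31.2 RPKM in shNUDT21 1 and 5, against 55.5 and 55.8 RPKM in shPLKO 1 and 2 (log2 fold change -0.73, SE 0.13, adjusted p 0.0505). GABPB1, the partner of the ETS factor GABPA, was at 3.44 and 4.54 RPKM in shNUDT21 1 and 5, against 1.87 and 1.91 RPKM in shPLKO 1 and 2 (0.78, SE 0.16, adjusted p 0.0561). POLRMT was lower and GABPB1 higher in both shNUDT21 libraries, each just short of the threshold. With the GC and length trend removed the log2 fold change of POLRMT was -0.52 (adjusted p 0.0889). That of GABPB1 was 0.47 there (adjusted p 0.109).

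Set beside the mitoribosome were the cytosolic ribosome, which makes the proteins of the mitoribosome itself, and complex I of the respiratory chain, which is built from subunits made by the mitoribosome and from nuclear ones. Of 80 tested cytosolic ribosomal protein genes, 56 had a log2 fold change below 0 and the median was -0.11. None passed the limma test, and voom called 0. At an unadjusted limma p under 0.05, 4 were lower and 0 higher, beside 17.3% and 16.6% of all genes. Both shNUDT21 libraries were below both controls for 27, or 33.8%, and above for 0, beside 33.4% and 32.8% of all genes. RPL17, a protein of the large cytosolic subunit, was at 13.6 and 10.0 RPKM in shNUDT21 1 and 5, against 17.9 and 17.7 RPKM in shPLKO 1 and 2 (ratio 0.662, adjusted p 0.102). These levels were far below the median of 1060 RPKM over the 80 genes, so RPL17 does not stand for the list. All 80 were lower in shNUDT21 5 than in shNUDT21 1, by a median log2 difference of -0.40, beside -0.27 for the mitoribosomal protein genes and -0.05 for all genes. Cytosolic ribosomal protein genes have many near-identical pseudogenes, which could share their reads. The same median difference between the shNUDT21 libraries was -0.31 for the assembly genes, -0.26 for the translation factors, -0.26 for mitochondrial DNA and regulators and -0.20 for complex I.

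Of 37 nuclear complex I subunit genes, 31 had a log2 fold change below 0 and the median was -0.21, the same to 2 decimals as for the large mitoribosomal subunit. NDUFV1, the subunit that oxidises NADH, fell, at 62.2 and 69.8 RPKM in shNUDT21 1 and 5, against 127 and 119 RPKM in shPLKO 1 and 2 (ratio 0.538, adjusted p 0.0444). Of the 37, 1 thus fell and 0 rose, where 3.21% of all genes tested fell and 2.61% rose. Voom called 1 lower and 0 higher. At an unadjusted limma p under 0.05, 11 of the 37 were lower and 0 higher, beside 17.3% and 16.6% of all genes. The log2 fold change of NDUFV1, -0.89, was -0.67 with the GC and length trend removed, where it did not pass (adjusted p 0.0724). It did not pass either with no filter on low values (0.0657), without shPLKO 1 (0.534) or without shPLKO 2 (0.435). No list was tested against another.

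**Figure D5:**
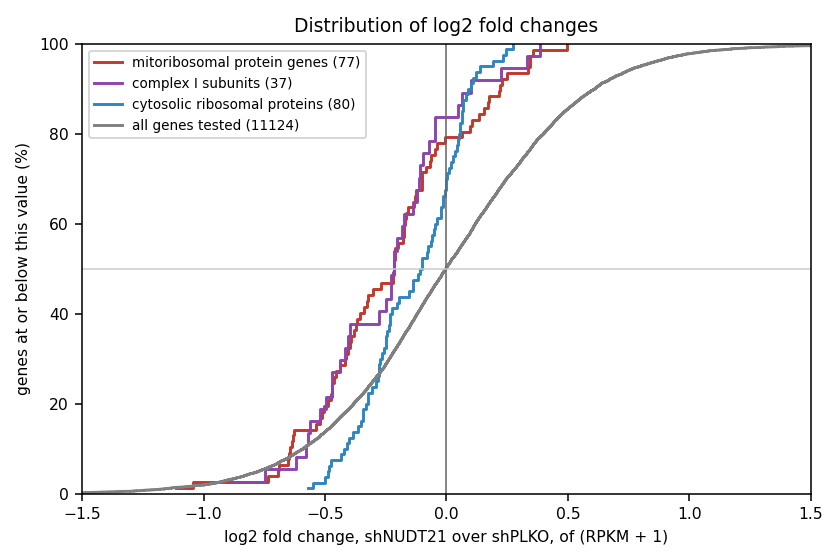
Share of genes in percent (y axis) at or below each log2 fold change, shNUDT21 over shPLKO (x axis), for the 77 mitoribosomal protein genes, 37 complex I subunit genes, 80 cytosolic ribosomal protein genes and all 11124 genes tested. The curves of the first 2 lists lie left of that of all genes, with medians of -0.22 and -0.21 beside -0.003.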

How the data were processed

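RNA was sequenced in 4 libraries, 2 per group. Bowtie 0.12.2 and the genome build hg18 are named in the submitters' processing notes, and nothing used here states the counter, the annotation or the strand setting. The authors deposited 1 table of values per library, which were read as RPKM. The file headers name no unit, so it was inferred from the values. Whole reads were recovered from the RPKM steps and annotated transcript lengths within a tolerance of 1e-06, and 834 lengths gave the same library total, against 68 for the next. An RPKM of 1 on 2 kb was 60.9 reads in shPLKO 1. In 27 of 20030 rows a date stood in place of a symbol, and these were left out.

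The test was limma 3.58.1 with an intensity trend (R 4.3.3) on log2(RPKM + 1), two-sided, with Benjamini-Hochberg adjustment over the 11124 genes whose mean reached 1 RPKM and 2 residual degrees of freedom. Overlaps of at least 50 exon bases and GC content came from GENCODE 29, of another build. Gene model lengths were recovered from the RPKM steps together with the reads, and fitted an annotated transcript length for 931 genes. The members, the lists and the settings were chosen with earlier results of these data known. Genes named were NUDT21, every member past the test, the 12 members with the lowest p, the 3 with the highest and the 3 with the lowest level, the 4 with the largest opposite change, the 3 whose shNUDT21 libraries differed most, the MRPS18 genes, the untested member, and in each list the genes past the test or otherwise the 2 with the lowest p. One gene that this rule names is not reported here. The other settings tried were voom on recovered reads, other pseudocounts, filters and scalings, removal of GC and length trends, and each library left out.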

Additional observations from a re-analysis of the deposited data

How the results depend on the processing

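The mitoribosomal protein genes had a negative median log2 fold change in every setting tried, from -0.36 without shNUDT21 1 to -0.08 without shNUDT21 5, and between 57 and 61 of them were below 0 with all 4 libraries. The number that fell was 1, with 0 under no filter on low values, 2 under voom, 2 under median ratio scaling, 2 without the intensity trend, and 0 to 54 with 1 library left out. The number that rose was 0, and 0 to 14 with 1 library left out. Over all genes 290 rose and 357 fell. With no filter 0 rose and 0 fell, although 4762 had an unadjusted limma p under 0.05. With the GC and length trend removed 126 rose and 100 fell, with a mean of at least 5 RPKM 233 fell, and with 1 library left out 0 to 3766 rose and 0 to 4005 fell. Under voom on recovered reads 365 rose and 382 fell. The cause of these differences was not tested, except that a library left out leaves a lone library assumed to vary like the other group: without a shNUDT21 library the spread comes from the close shPLKO pair alone. No paired analysis was possible because the groups share only the replicate number 1. MRPS24 had at most 3 reads in a library, and each of the other 77 genes at least 378.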
